A study of Mus musculus with 12 samples.

Results

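The genes described here are Trp53, which encodes the transcription factor p53, and 9 genes known as its direct targets: Mdm2, Cdkn1a, Ccng1, Plk2, Bax, Bbc3, Trp53inp1, Zmat3 and Phlda3. They were chosen by name as a pathway, with earlier results of these data known. Matched by symbol to the mouse Ensembl identifiers of the deposited tables, they are 10 of 43432 genes. Of these, 9 passed the filter on low counts and were among the 12705 genes tested. Phlda3 did not pass it, and its values are given without a test.

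p53 is a sequence-specific transcription factor that is activated mainly at the level of its protein, when damage or other stress frees it from the ubiquitin ligase Mdm2. It then raises the transcription of genes that halt the cell cycle (Cdkn1a), promote apoptosis (Bax, Bbc3), alter growth and redox control (Trp53inp1, Zmat3, Phlda3) or feed back on the pathway (Mdm2, Ccng1, Plk2). Several of these genes also have p53-independent inputs, and Mdm2, Plk2 and Cdkn1a are known to respond to mitogenic signals. RNA levels of the targets do not measure the amount of p53 protein.

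RNA was measured in BV2 cells, a mouse microglial line immortalised with a retrovirus that carries raf and myc oncogenes. The 6 groups of 2 libraries each were untreated cells, cells given lipopolysaccharide (LPS, a bacterial endotoxin that activates the receptor TLR4) at 100 ng/mL, and cells given the same LPS after 10 or 30 µM 6-gingerol or 10 or 30 µM 6-shogaol. Both compounds come from ginger, and 6-shogaol is the dehydrated form of 6-gingerol, with an unsaturated ketone in place of the hydroxy ketone. The labels include no group with a compound but no LPS, so every compound comparison is between LPS-treated cells, and the 4 compound groups share the same 2 LPS libraries as control. No label says that the 2 libraries of a group came from separate cultures, and the p-values then measure only the spread between these libraries, which may be technical.

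The libraries held between 16534960 and 21179867 expected counts, and between 15345 and 16015 genes had at least 1 count. All 12 microglial and macrophage markers examined were measured, with a summed level of 2415 to 2965 CPM in each library, although Cx3cr1, P2ry12 and Tmem119 were each at a few CPM or below. None of 5 astrocyte, 4 neuronal and 4 lymphocyte markers passed the filter, and the sums of 4 oligodendrocyte and 3 fibroblast markers stayed at or under 3.14 and 1.67 CPM. Within these lists some markers moved with the treatments: with LPS 3 of the 12 microglial markers rose (Csf1r, Ptprc and Adgre1) and Trem2 fell, and with 30 µM 6-shogaol against LPS 2 rose (Trem2 and Tyrobp) and 2 fell (Csf1r and Aif1). The fibroblast marker Col1a1 averaged 0.291 CPM in untreated cells, 1.48 CPM with LPS and 0.202 CPM with 30 µM 6-shogaol, and was called in both comparisons (adjusted p = 0.00390 and 0.00125, edgeR), and the oligodendrocyte marker Mbp (0.428, 0.958 and 0.265 CPM) was called in the second (adjusted p = 0.0272, edgeR). Like Mdm2 and Plk2 below, both had a higher mean with LPS than in either other group named here, and the part of these markers in those results was not tested. CPM is the expected count scaled to a common library size, corrected for composition, and TPM, used below to compare different genes, also divides by gene length. In bulk RNA of this kind, fewer cells with a transcript and less transcript per cell cannot be told apart.

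By mean TPM over the 12 libraries, Bax was the most abundant of the 10 genes at 321.5 TPM, with a range from 249.99 to 383 TPM. Trp53 followed at 87.7 TPM (72.5 to 119), and neither range met that of any other of these genes. Below them came Mdm2 at 47.5 TPM, Plk2 at 39.6, Cdkn1a at 24.9, Ccng1 at 17.6 and Bbc3 at 17.2, and the ranges of each neighbouring pair in this order overlapped. Trp53inp1 and Zmat3 were scarce, at 2.76 and 2.57 TPM, with overlapping ranges. Phlda3, an inhibitor of Akt signalling, had 1 expected count in all, in LPS replicate 2, where 3 counts would correspond to between 0.140 and 0.183 CPM depending on the library.

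Promoter sequence was available from RefSeq (GRCm38.p6) for 8 of the 10 genes, as windows of 250 bases before to 50 bases after each annotated start. Windows were searched on both strands for the p53 half-site, a consensus of 10 bases, and the genes below are shown because they carry a match. An exact half-site was present in at least 1 window of 5 of the 8 genes (Trp53, Mdm2, Cdkn1a, Ccng1 and Bax), against 8.36% of all 32851 windows. The shares over all windows here and below count windows rather than genes, and Cdkn1a and Bbc3 have more than 1 window each. A functional p53 element usually joins a pair of half-sites, and a pair with no base between the half-sites and at most 1 mismatch was found in Cdkn1a and Ccng1 alone of the 8, against 0.0883% of all windows. Annotated starts of Cdkn1a lie at chr17:29090979 and chr17:29093769. All its matches named here lie in the window of the upstream start, from which their positions are counted. The window of the other start held no exact half-site and no pair. The upstream window also held a pair of exact half-sites separated by 12 bases. Exact pairs with any spacer from 0 to 13 bases occur in 0.0731% of windows. Bax held a pair with 1 mismatch and a spacer of 1 base. A looser pattern, with up to 1 mismatch in each half-site and a spacer from 0 to 13 bases, occurs in 6.72% of windows. Sequences run 5′ to 3′ on the gene's strand, with the letters that match the consensus in capitals.
Cdkn1a, adjacent pair, chr17:29090928-29090947, plus strand, bases -51 to -32 from the start: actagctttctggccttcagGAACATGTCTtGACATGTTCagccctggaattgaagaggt
Cdkn1a, exact pair with a spacer, chr17:29090906-29090937, plus strand, bases -73 to -42: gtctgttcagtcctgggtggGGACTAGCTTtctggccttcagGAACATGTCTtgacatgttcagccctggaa
Ccng1, adjacent pair, chr11:40755462-40755481, minus strand, bases -195 to -176: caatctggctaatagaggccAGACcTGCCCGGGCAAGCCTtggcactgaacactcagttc
Bax, pair with a spacer, chr7:45467090-45467110, minus strand, bases -212 to -192: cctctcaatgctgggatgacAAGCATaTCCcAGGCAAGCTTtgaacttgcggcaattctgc
Mdm2, single half-site, chr10:117710935-117710944, minus strand, bases -186 to -177: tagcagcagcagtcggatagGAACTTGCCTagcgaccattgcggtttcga
Trp53, single half-site, chr11:69580284-69580293, plus strand, bases -75 to -66: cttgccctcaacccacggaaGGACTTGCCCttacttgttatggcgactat

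The first base of the transcript is counted as 1 and the base before it as -1. These matches describe letters in a window and are not measured binding sites. With 1 mismatch allowed in a half-site, 6 of the 8 genes had one, as did 70.0% of all windows. The windows of Plk2, Phlda3 and Bbc3 (3 annotated starts) held no exact half-site. The p53-responsive promoter of Mdm2 is known to lie in its first intron, which the window does not reach. Sequence outside the windows was not searched for any of the genes.

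A search of the same windows for the NF-kB site, the element bound by the main transcription factor of the LPS response, was added after the expression values had been seen. It matched exactly in Trp53 and Bbc3, against 4.51% of all windows, and not in the windows of the genes that rose with LPS, Mdm2 and Plk2. Capitals mark the NF-kB match.
Trp53, NF-kB site, chr11:69580354-69580363, plus strand, bases -5 to 5: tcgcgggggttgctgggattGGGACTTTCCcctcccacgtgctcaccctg
Bbc3, NF-kB site, chr7:16309446-16309455, plus strand, bases -137 to -128: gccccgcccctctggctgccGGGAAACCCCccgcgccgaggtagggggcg

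**Figure D1:**
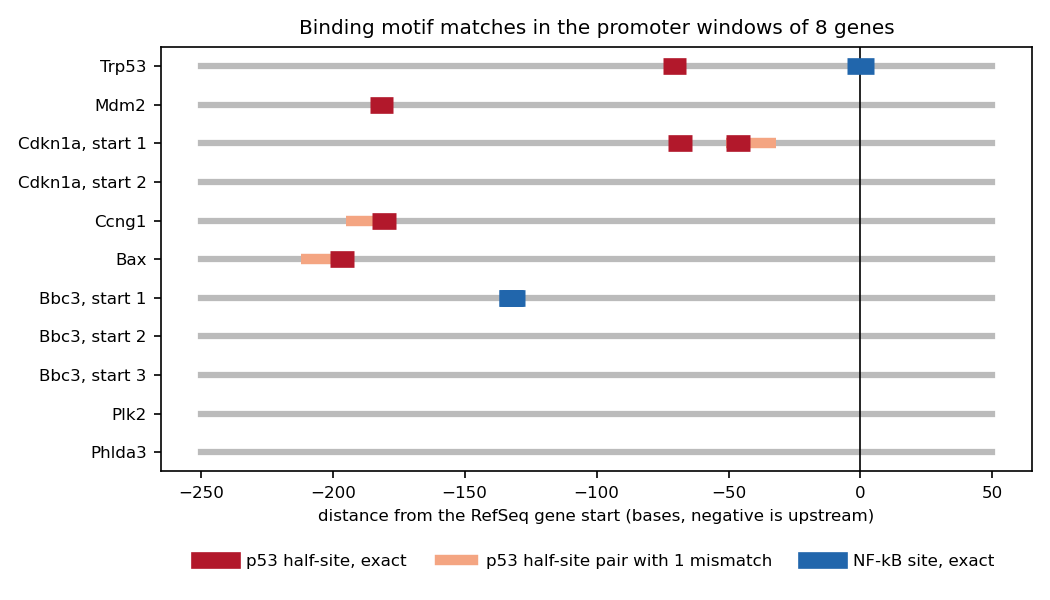
Position of exact p53 half-sites (dark red), p53 half-site pairs with 1 mismatch (light red) and exact NF-kB sites (blue) in each promoter window of 8 genes; the horizontal axis is the distance in bases from the RefSeq start. Exact half-sites lie in the windows of 5 genes, and the windows of Plk2, Phlda3 and Bbc3 carry none.

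LPS changed 4 of the 9 tested genes, and they did not move together: Mdm2 and Plk2 rose, while Trp53 and Cdkn1a fell. Across all genes tested, 11.8% passed the same threshold (edgeR quasi-likelihood F test, adjusted p under 0.05), 7.66% upwards and 4.16% downwards. The median log2 fold change of the 9 genes was -0.04, beside -0.03 over all genes tested.

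Mdm2, the ubiquitin ligase that binds and degrades p53 and is itself a p53 target, was at 75.3 and 61.5 CPM in the untreated libraries and at 146 and 158 CPM with LPS. Both LPS libraries lay far above both untreated ones. Its log2 fold change was 1.16 (SE 0.11, 95% interval 0.92 to 1.39, adjusted p = 2.67e-06, edgeR), or 2.23-fold.

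Plk2, a stress-induced polo-like kinase, went from 45.8 and 49.0 CPM in untreated cells to 123 and 133 CPM with LPS. The groups were again well apart. The log2 fold change of 1.43 (SE 0.10, interval 1.22 to 1.64, adjusted p = 4.88e-08, edgeR) was the largest of the 9 genes in this comparison.

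Trp53 itself was at 164 and 161 CPM in untreated cells and at 122 and 131 CPM with LPS. The fall was 0.777-fold (log2 fold change -0.36, SE 0.09, adjusted p = 0.0169, edgeR) and the groups did not overlap. The processed pseudogene Trp53-ps had no count in any library. Without LPS replicate 1 or LPS replicate 2 the adjusted p of Trp53 was 0.177 or 0.0657, and it was 0.117 when only the compared groups were fitted.

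Cdkn1a, which encodes the cyclin-dependent kinase inhibitor p21 and is the classical arrest target of p53, was at 50.7 and 64.9 CPM in untreated cells and at 39.1 and 34.8 CPM with LPS. The untreated libraries differed from each other but both exceeded the LPS libraries. Its log2 fold change was -0.65 (SE 0.13, interval -0.93 to -0.37, adjusted p = 0.00357, edgeR), with an adjusted p of 0.0685 without LPS replicate 2. An uncharacterised transcript on the opposite strand shares 273 exon bases with Cdkn1a, and whether counting used strand is not given in the sources used here.

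The other 5 genes did not pass the test with LPS, and their untreated and LPS libraries overlapped, while 49.6% of all genes tested had libraries that did not. Their log2 fold changes were -0.11 for Ccng1, a cyclin that recruits phosphatase to Mdm2, 0.06 for the pore-forming apoptosis effector Bax, 0.13 for Bbc3, which encodes the BH3-only protein Puma, -0.04 for Trp53inp1, a stress protein that cooperates with p53, and -0.13 for Zmat3, an RNA-binding splicing regulator. Their 95% intervals all lay between -0.46 and 0.45.

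**Figure D2:**
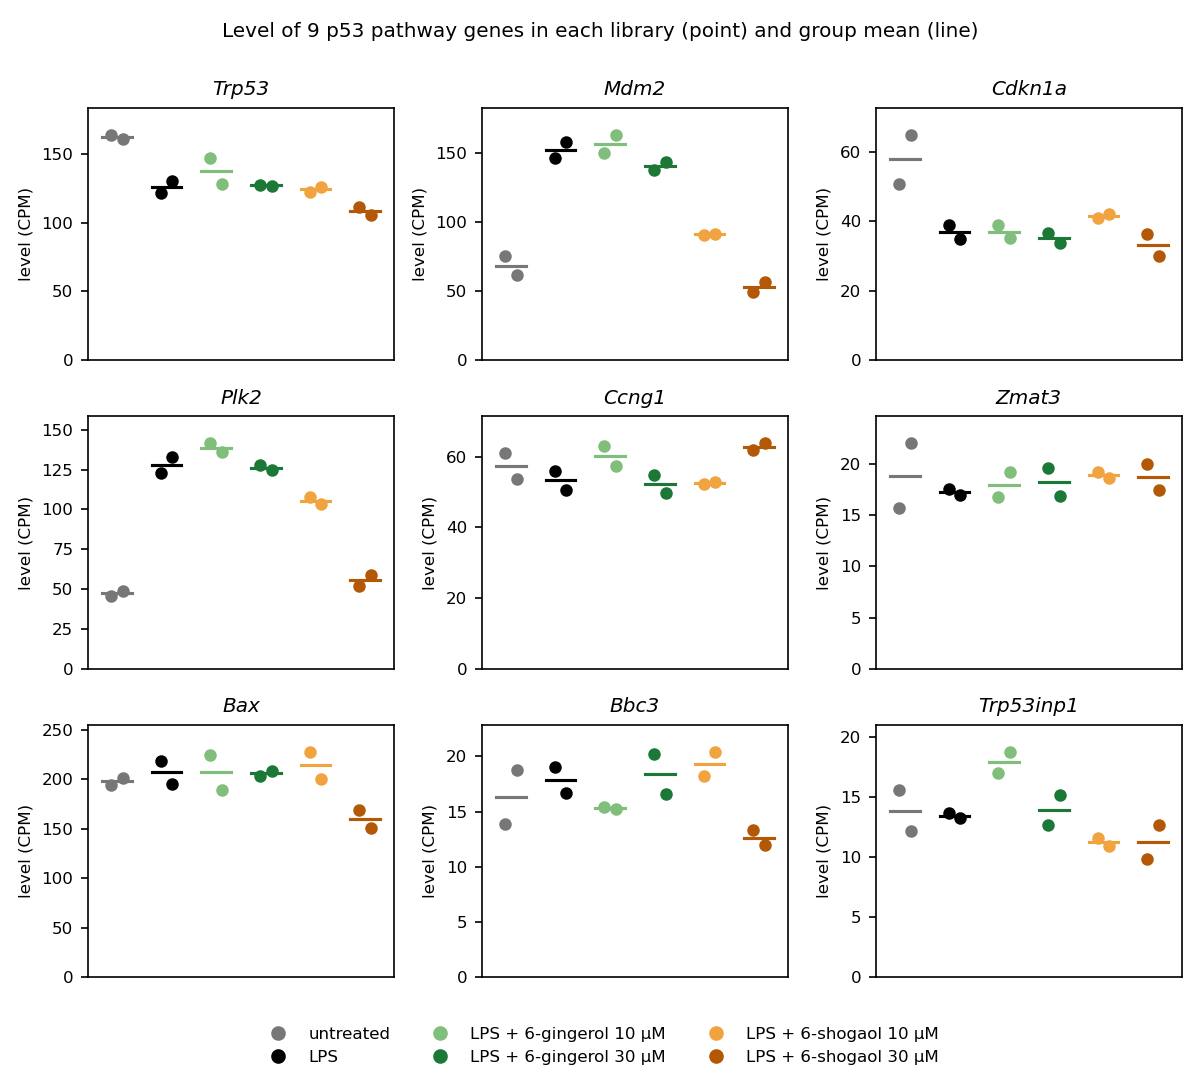
Level in CPM of each of the 9 tested genes (vertical axes from 0) in the 2 libraries of each of the 6 groups, with a line at the group mean. Mdm2 and Plk2 are high in the LPS and 6-gingerol groups, intermediate with 10 µM 6-shogaol and low with 30 µM 6-shogaol, while Trp53 and Cdkn1a are highest in the untreated libraries.

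With 6-gingerol before LPS, none of the 9 genes was called against LPS alone at either dose. No gene at all was called by edgeR at 10 or at 30 µM (0% of genes tested in both), and the number at an unadjusted p under 0.05 was 243 at 10 µM and 189 at 30 µM. DESeq2 called 0 genes at 10 µM and 2 at 30 µM, with none of the 9 among them. Mdm2 was at 150.04 and 163.10 CPM with 10 µM 6-gingerol and at 137 and 143 CPM with 30 µM, and its log2 differences from LPS were 0.04 (95% interval -0.19 to 0.27) and -0.12 (-0.35 to 0.11). Plk2 was at 142 and 136 CPM and at 128 and 125 CPM, with log2 differences of 0.12 (-0.08 to 0.32) and -0.02 (-0.22 to 0.18). For both genes the intervals at both doses exclude a fall as large as the rise that LPS had produced.

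With 10 µM 6-gingerol, Trp53inp1 had the largest difference from LPS in size of the 9 genes, and it did not pass the threshold. It was at 17.0 and 18.7 CPM, above both LPS libraries at 13.6 and 13.2 CPM, with a log2 difference of 0.41 (SE 0.15, 95% interval 0.08 to 0.74), an unadjusted p of 0.0178 and an adjusted p of 1 by edgeR. With 30 µM 6-gingerol it was at 12.6 and 15.1 CPM, which overlapped the LPS libraries.

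With 10 µM 6-shogaol, Mdm2 was the single gene of the 9 that was called against LPS, where 0.638% of all genes were called, 0.0630% higher and 0.575% lower. It was at 90.7 and 91.6 CPM, below both LPS libraries and above both untreated ones. The log2 fold change was -0.74 (SE 0.11, interval -0.97 to -0.51, adjusted p = 0.00288, edgeR), or 0.598-fold. Without LPS replicate 2, 6-shogaol replicate 1 or 6-shogaol replicate 2 the adjusted p was 0.0686, 0.0669 or 0.0880, while the log2 fold change stayed negative.

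Plk2 at this dose was at 108 and 103 CPM, below both LPS libraries at 123 and 133 CPM, but its difference of -0.28 (interval -0.48 to -0.08, adjusted p = 0.302, edgeR) was not called. Trp53 was at 123 and 126 CPM, within the range of the LPS libraries. For the remaining 6 genes the differences lay between -0.26 (Trp53inp1) and 0.17 (Cdkn1a), and none passed the test.

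With 30 µM 6-shogaol, 4 of the 9 genes were lower than with LPS alone and none was higher: Mdm2, Plk2, Bax and Bbc3. The share called over all genes was 25.4%, with 12.6% higher and 12.8% lower. The median log2 fold change of the 9 was -0.26, beside 0.00 over all genes tested. In 7 of the 9 genes the 6-shogaol and LPS libraries did not overlap, as in 64.7% of all genes tested.

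Mdm2 fell to 49.3 and 56.7 CPM, below the untreated libraries as well as the LPS ones. Its log2 fold change against LPS was -1.52 (SE 0.11, interval -1.76 to -1.28, adjusted p = 2.54e-07, edgeR), or 0.348-fold. The fall from 10 to 30 µM was also called, at -0.78 (SE 0.11, adjusted p = 0.000215, edgeR), in a comparison where 4 of the 9 genes were called, all lower, and 19.4% of all genes (9.85% higher, 9.54% lower).

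Plk2 fell to 52.0 and 59.0 CPM, just above the untreated libraries. The log2 fold change against LPS was -1.20 (SE 0.10, interval -1.41 to -0.997, adjusted p = 6.26e-07, edgeR), or 0.434-fold. Most of it lay between the doses, where the step from 10 to 30 µM was -0.93 (SE 0.10, adjusted p = 1.45e-05, edgeR). Mdm2 and Plk2 were called with LPS, with 30 µM 6-shogaol against LPS and between the 6-shogaol doses. Each of these calls held under the 12 other settings tried, including the omission of any 1 of the libraries compared.

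The pro-apoptotic pair moved less. Bax was at 169 and 151 CPM with 30 µM 6-shogaol against 218 and 196 CPM with LPS, and the groups did not overlap. Its log2 fold change was -0.37 (SE 0.11, adjusted p = 0.0224, edgeR). Without LPS replicate 1 or 30 µM 6-shogaol replicate 2 the adjusted p was 0.189 or 0.177, with limma-trend on the deposited signal it was 0.0529, and 192 exon bases of Bax are shared with a transcript on the same strand.

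Bbc3 was at 13.3 and 11.9 CPM with 30 µM 6-shogaol and at 19.1 and 16.7 CPM with LPS. The 6-shogaol libraries were the lowest 2 of the 12 for both Bax and Bbc3. The log2 fold change of Bbc3 was -0.50 (SE 0.16, interval -0.84 to -0.16, adjusted p = 0.0311, edgeR). Its call was lost on leaving out any 1 of the 4 libraries compared (adjusted p 0.0588 to 0.196), with scaling by library totals (0.0549) and in limma-trend (0.116). Both genes were also lower at 30 than at 10 µM 6-shogaol, Bax by -0.42 (adjusted p = 0.0153, edgeR) and Bbc3 by -0.62 (adjusted p = 0.0133, edgeR), and these calls were lost without 30 µM replicate 2, that of Bax also without 10 µM replicate 1 and that of Bbc3 without 10 µM replicate 2.

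The other 5 tested genes were not called at 30 µM. Trp53 was at 111 and 105 CPM, the lowest of the 12 libraries, with a log2 difference from LPS of -0.22 (interval -0.42 to -0.02, adjusted p = 0.101, edgeR). Cdkn1a was at 36.3 and 30.0 CPM, overlapping the LPS libraries, with a difference of -0.16 (interval -0.44 to 0.13). Ccng1 was at 61.9 and 63.8 CPM, above both LPS libraries at 56.1 and 50.5 CPM, with a difference of 0.24 (interval 0.01 to 0.47, adjusted p = 0.115, edgeR). Trp53inp1 had a difference of -0.26 and Zmat3 of 0.12. Zmat3 varied least of the 9 genes, with group means of log2 CPM within 0.13 of each other over all 6 groups.

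**Figure D3:**
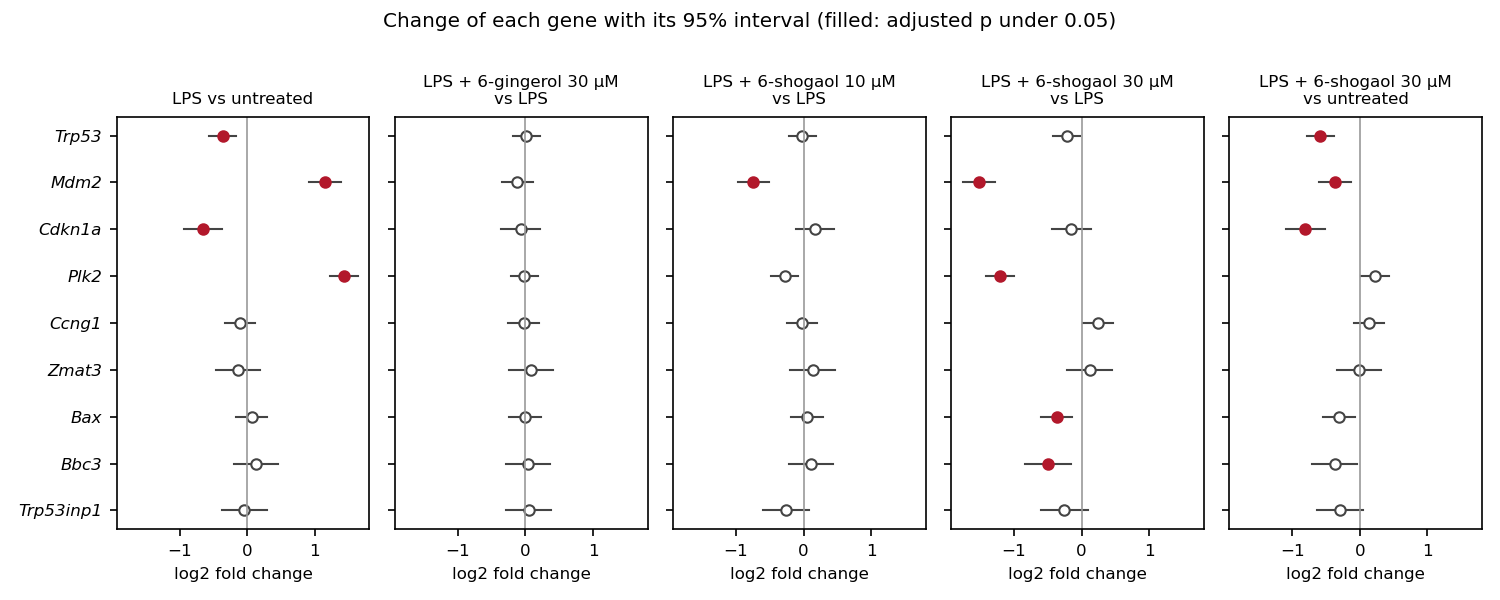
Log2 fold change (horizontal axes) with its 95% interval for each of the 9 tested genes in 5 comparisons, filled where the adjusted p was under 0.05. Mdm2 and Plk2 stand at 1.16 and 1.43 with LPS and at -1.52 and -1.20 with 30 µM 6-shogaol against LPS, and all 9 intervals of 30 µM 6-gingerol against LPS include 0.

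Against untreated cells, the cells given LPS and 30 µM 6-shogaol had lower Trp53, Mdm2 and Cdkn1a, 3 of the 9 genes, where 25.4% of all genes were called (13.3% higher, 12.1% lower). Trp53 was 0.667-fold of untreated (log2 fold change -0.58, SE 0.09, adjusted p = 0.000363, edgeR) and Cdkn1a 0.573-fold (-0.80, SE 0.13, adjusted p = 0.000463, edgeR). For both, neither untreated library was reached by a 6-shogaol library. Mdm2 was 0.775-fold (-0.37, SE 0.11, adjusted p = 0.0254, edgeR), with an adjusted p of 0.200 without untreated replicate 1 and 0.197 without 30 µM 6-shogaol replicate 1, and of 0.105 when only the compared groups were fitted. Plk2 was not called, at 0.23 (interval 0.02 to 0.44, adjusted p = 0.103, edgeR), and neither was Bax at -0.31 (adjusted p = 0.0537, edgeR).

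The related compounds were compared with each other at matched doses. At 10 µM, Mdm2 was lower with 6-shogaol than with 6-gingerol (log2 difference -0.78, SE 0.11, interval -1.01 to -0.55, adjusted p = 0.00236, edgeR), the single call among the 9 genes where 0.638% of all genes were called (0.0787% higher, 0.559% lower). Without 6-shogaol replicate 1 or replicate 2 that call was lost. Trp53inp1 at 11.6 and 10.9 CPM with 6-shogaol lay below its 17.0 and 18.7 CPM with 6-gingerol, a difference of -0.67 (interval -1.01 to -0.34) that missed the threshold at an adjusted p of 0.0727 by edgeR and passed it in DESeq2. Plk2 differed by -0.39 (interval -0.59 to -0.19, adjusted p = 0.0785, edgeR).

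At 30 µM, 4 of the 9 genes were lower with 6-shogaol than with 6-gingerol, where 25.0% of all genes differed (12.5% higher, 12.4% lower). Mdm2 differed by -1.40 (SE 0.11, adjusted p = 6.74e-07, edgeR) and Plk2 by -1.18 (SE 0.10, adjusted p = 8.26e-07, edgeR). Bax and Bbc3 differed by -0.36 and -0.55 (adjusted p = 0.0251 and 0.0202, edgeR), and both calls were lost without 30 µM 6-shogaol replicate 2 or 6-gingerol replicate 1, and that of Bax also without 6-gingerol replicate 2. No difference between the compounds was detected for Cdkn1a, at -0.08 with an interval of -0.37 to 0.20, or for Zmat3, at 0.04 with an interval of -0.29 to 0.37. The intervals of Trp53 (-0.43 to -0.03) and Ccng1 (0.04 to 0.49) excluded 0 without an adjusted p under the threshold. A test of whether the compound difference itself changed between the doses, added after the data had been seen, called 3 of the 9 genes (Mdm2, Plk2 and Bbc3) and 8.17% of all genes. It was not repeated under other settings.

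Over the 12 libraries, log2 CPM of Mdm2 and Plk2 had a Pearson r of 0.92 and that of Trp53 and Cdkn1a of 0.79, while Mdm2 and Cdkn1a had -0.31. The points share the 6 treatment groups and the library depth, and these values are descriptions. The 3 genes with the profile most like that of Mdm2 among 12696 others tested were the cytokine gene Il6 (r = 0.993), the interleukin-1 receptor antagonist gene Il1rn (0.986) and the adaptor gene Blnk (0.985). Il6 averaged 8.04 CPM in untreated cells, 203 CPM with LPS, 168 and 109 CPM with 10 and 30 µM 6-gingerol, and 29.2 and 3.52 CPM with 10 and 30 µM 6-shogaol. At 30 µM 6-gingerol Mdm2 averaged 140.3 CPM beside 152 CPM with LPS. For Plk2 the 3 genes were the acute-phase gene Saa1 (0.992), Fam129a (0.991) and P3h2 (0.990). Saa1 was scarce, averaging 0 CPM in untreated cells, 2.65 CPM with LPS and 0.115 CPM with 30 µM 6-shogaol. For Cdkn1a the 3 genes were Sars2 (0.952), Thrap3 (0.950) and D17H6S53E (0.949).

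A wider list of 32 other genes known as p53 targets, 29 of them tested, was mixed in direction as well. LPS raised 5 of the 29 and lowered 1, beside 7.66% and 4.16% of all genes, with a list median of -0.09 on the log2 scale beside -0.03 over all genes. The drug efflux pump gene Abcb1a went from 0.273 ± 0.12 to 5.04 ± 0.32 CPM (SD, n = 2), a log2 fold change of 4.19. The stress cytokine gene Gdf15 rose by 1.55, from 7.37 to 21.6 CPM, and the death receptor gene Fas by 1.304, from 35.4 to 87.4 CPM. Ddit4, an mTOR inhibitor gene, fell by 0.82, a call lost without untreated replicate 2 or LPS replicate 2. The growth arrest and repair gene Gadd45a (1.03) and the peptide transporter gene Tap1 (0.65) made up the 5 that rose, and both were named after their values had been seen.

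With 30 µM 6-shogaol against LPS, 5 of the 29 rose and 7 fell, beside 12.6% and 12.8% of all genes, and the list median was 0.02 beside 0.00 over all genes. Those that rose most were Pidd1, which encodes the core of the caspase-2 platform (log2 fold change 1.25, from 4.46 to 10.6 CPM), the epoxide hydrolase gene Ephx1 (0.82, from 48.6 to 85.7 CPM) and the antioxidant sestrin gene Sesn1 (0.69, from 13.04 to 21.1 CPM). Those that fell most were Abcb1a by 3.40 to 0.474 CPM, Gadd45a by 1.36 from 41.2 to 16.1 CPM and Ddit4 by 0.996, the last a call lost without LPS replicate 1 or 30 µM 6-shogaol replicate 2. Sesn2, a second sestrin gene, fell by 0.67 while Sesn1 rose. Fas and Gdf15 fell by 0.52 and 0.47, both with calls lost on leaving out LPS replicate 2, and that of Fas also without 30 µM 6-shogaol replicate 1 and that of Gdf15 without replicate 2. The BH3-only gene Pmaip1 at 0.36 (adjusted p = 0.0552, edgeR) and the antiproliferative gene Btg2 at -0.26 (adjusted p = 0.197, edgeR) were not called.

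At 10 µM 6-shogaol, Ephx1 rose by 0.57 on the log2 scale and Abcb1a fell by 1.32, and either call was lost on leaving out any 1 of the 4 libraries compared. No gene of the list was called with 6-gingerol at either dose, where no gene at all was called.

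**Figure D4:**
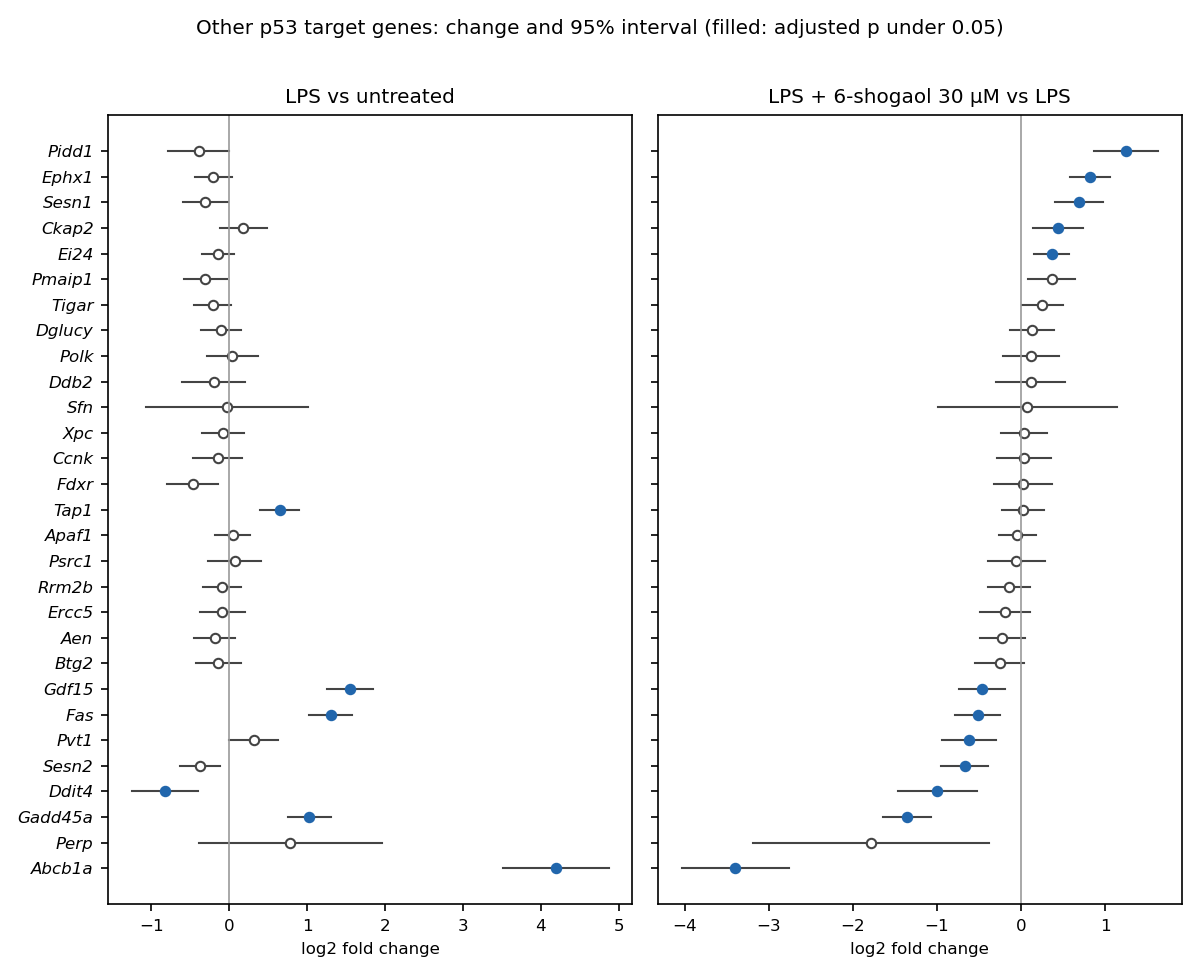
Log2 fold change (horizontal axes, of unequal range) with its 95% interval for the 29 tested genes of the wider p53 target list, filled where the adjusted p was under 0.05, with LPS against untreated on the left and 30 µM 6-shogaol against LPS on the right. Both panels hold called genes on either side of 0, with Abcb1a at 4.19 on the left and -3.40 on the right.

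Of 27 regulators of p53 and DNA damage kinases, 25 were tested. None was called with LPS (11.8% of all genes), 6-gingerol (0% at both doses) or 10 µM 6-shogaol (0.638%). With 30 µM 6-shogaol against LPS 7 were higher and none lower, beside 12.6% and 12.8% of all genes. The checkpoint kinase genes Chek1 and Chek2 rose by 0.88 and 0.87 on the log2 scale, to 44.6 ± 8.0 and 66.8 ± 6.2 CPM (SD, n = 2), and Ppm1d, which encodes a phosphatase that acts on p53 and is also its target, rose by 0.71, from 9.35 to 15.3 CPM. Mdm4, the partner of Mdm2 in restraining p53, was at 109 ± 9.6 CPM with LPS and 97.4 ± 12 CPM with 30 µM 6-shogaol (log2 fold change -0.16, adjusted p = 0.395, edgeR). Cdkn2a, the locus of the p53 activator Arf and of the kinase inhibitor p16, whose transcripts a gene-level table does not separate, was at 56.5 ± 0.57 CPM in untreated cells and 68.7 ± 7.7 CPM with 30 µM 6-shogaol, and was not called against LPS.

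Among 23 genes of the BCL2 family and the caspase route, 21 were tested, and with 30 µM 6-shogaol against LPS 4 rose and 5 fell, beside 12.6% and 12.8% of all genes. The BH3-only gene Bmf rose by 0.60 on the log2 scale, a call lost without LPS replicate 2 or 30 µM 6-shogaol replicate 1. Of the survival genes, Bcl2l1 (Bcl-xL) fell by 0.98, from 70.6 to 35.8 CPM. Bcl2a1d and Bcl2a1b fell by 2.11 and 1.41, and since these near-identical copies can share reads, the split between them is uncertain. With LPS against untreated, where 7.66% of all genes rose and 4.16% fell, 3 of the 21 rose (Bik by 0.81 and Xiap by 0.33 among them, where the calls of Bik and Xiap were lost without LPS replicate 1, and that of Xiap also without LPS replicate 2 or untreated replicate 1) and Bmf fell by 0.67, a call lost without LPS replicate 2.

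Of 16 family relatives of the 10 genes, 13 were tested. None was called with LPS (11.8% of all genes) and 2 were called with 30 µM 6-shogaol against LPS (25.4% of all genes), Plk1 higher at 0.27 and Plk3 lower at -0.62. Phlda1, a relative of Phlda3 singled out after its values had been seen, was at 0.587 ± 0.041 CPM in untreated cells and 1.26 ± 0.58 CPM with LPS (SD, n = 2), a log2 difference of 1.124 (interval 0.10 to 2.15, adjusted p = 0.153, edgeR). The call of Plk1 was lost without LPS replicate 1, LPS replicate 2 or 30 µM 6-shogaol replicate 1, and that of Plk3 without any 1 of the 4 libraries. Ccng2, Trp53inp2 and Cdkn1b, relatives of Ccng1, Trp53inp1 and Cdkn1a, were not called in either comparison. Of the 7 other cyclin-dependent kinase inhibitors, 1 rose and 2 fell with 30 µM 6-shogaol against LPS, beside 12.6% and 12.8% of all genes. Cdkn2c rose by 0.81 with 30 µM 6-shogaol while Cdkn2b fell by 0.79 (lost without LPS replicate 2 or 6-shogaol replicate 2) and Cdkn3 by 0.55 (lost without any 1 library). LPS raised Cdkn2b by 0.90, a call lost without untreated replicate 1 or LPS replicate 2.

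Cell cycle genes that p21 represses through the DREAM complex were taken as a last list of 24, all tested. With LPS, where Cdkn1a fell, none was called, beside 7.66% of all genes higher and 4.16% lower. The list median was -0.01 beside -0.03 over all genes. With 30 µM 6-shogaol, where Cdkn1a was not called against LPS, 15 rose and 2 fell, beside 12.6% and 12.8% of all genes, and the median was 0.60 beside 0.00 over all genes. Mcm5, a subunit of the replicative helicase, rose by 1.78 from 66.9 ± 2.0 to 229 ± 17 CPM, the replication clamp gene Pcna by 1.08 and E2f1 by 0.90, while Ccnb2 and Cenpa fell by 0.44 and 0.41. Pcna is also known as a p53 target. Against untreated cells, where Cdkn1a was lower with LPS and 30 µM 6-shogaol, 15 of the 24 were higher and 2 lower. Of all genes, 13.3% were higher and 12.1% lower there. The list median was 0.58 beside -0.01 over all genes. A link between Cdkn1a and this list was not tested. Its genes Chek1, Plk1 and Plk4 are also counted in the lists above.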

How the data were processed

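The genes and lists were chosen with earlier results of these data known. Per the file headers, the authors deposited RSEM gene tables with an expected count and a TPM per gene and library, and gene lengths in bases used only for mean fragment length (222.98 to 252.34 bases). A second deposited table of the authors holds a normalized signal for 18013 genes, whose normalization is not given in the sources used here. The submitters' processing notes list GRCm38, RSEM 1.3.3, STAR 2.7.11b, DESeq2 1.44.0, R 4.4.2, FastQC 0.12.1 and Trimmomatic 0.39, while their roles and the annotation release are not given in the sources used here. Symbols and positions came from the GENCODE M21 annotation, which matched 97.8% of identifiers.

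Expected counts were rounded (7.03% were not whole), filtered with filterByExpr, scaled by TMM and fitted in edgeR 4.0.16 (R 4.3.3) over all 12 libraries with 6 group means and no covariate (6 residual degrees of freedom, common biological coefficient of variation 9.45%). The quasi-likelihood F test, 2-sided, was adjusted by Benjamini-Hochberg over 12705 genes in each of 9 contrasts, and a gene was called at an adjusted p under 0.05. The 95% interval reached a median of 0.29 to either side of the estimate (log2, 30 µM 6-shogaol against LPS), and intervals and limits from low counts cover counting and library spread only. The pipeline was tested on simulated data. No pair of the 66 pairs of libraries was identical.

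All 10 genes were described in every comparison. Other genes were named as up to 3 called genes per list with the largest change in each direction in 3 contrasts, plus 12 genes set by name, and profile likeness was the Pearson r of log2 CPM (prior count 2). Alternatives were DESeq2 size factors, library totals, no count filter, a replicate block, a fragment length covariate, a fit of the compared groups alone, DESeq2 1.42.0, limma-trend 3.58.1 on log2 of the deposited signal plus 1, and leaving out each library in turn. The NF-kB search, the test of the dose dependence of the compound difference and Trp53cor1 were added after seeing the data. No genome sequence, protein sequence or promoter window of Trp53inp1 and Zmat3 was used here. Some genes of the BCL2 family and caspase list that the naming rule selects are not reported here.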

Additional observations from a re-analysis of the deposited data

Results flagged for a closer look

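The difference between the compounds was called as unequal at 10 and 30 µM for 3 of the 9 tested genes. This was tested, after the data had been seen, as the 6-shogaol minus 6-gingerol log2 difference at 30 µM minus that at 10 µM (edgeR quasi-likelihood F test over all 12 libraries), for which 8.17% of all genes tested had an adjusted p under 0.05. The value was -0.62 (SE 0.16, adjusted p = 0.0247) for Mdm2 and -0.79 (SE 0.13, adjusted p = 0.00270) for Plk2, whose compound difference was -0.39 at 10 µM and -1.18 at 30 µM. For Bbc3 it was -0.88 (SE 0.22, adjusted p = 0.0256), with a compound difference of 0.34 at 10 µM, where it was not called, and -0.55 at 30 µM. Bbc3 at 10 µM stood at 18.2 and 20.4 CPM with 6-shogaol and at 15.4 and 15.2 CPM with 6-gingerol. For Ccng1 the value was 0.46 (SE 0.15, adjusted p = 0.0724), which missed the threshold. The test was not repeated under the other settings or with a library left out, so how far its calls depend on them is not known.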

How the results depend on the processing

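No call in the 9 comparisons between groups reversed under any setting. Of the values of the 9 tested genes recomputed over 12 alternatives per comparison, 928 stayed on the same side of the threshold, 32 lost a call and 12 gained one. Over these and the other named genes, the sign changed 90 times, all among values called in neither fit. Without a count filter, the number of genes called was 28 (10 µM 6-gingerol), 27 (30 µM 6-gingerol) and 311 (10 µM 6-shogaol) against LPS, where it had been 0, 0 and 81, and 419 for 6-shogaol against 6-gingerol at 10 µM, where it had been 81, with 3 of the 9 genes in place of 1. Fitting the compared groups alone gave 5, 970 and 152 for 30 µM 6-gingerol against LPS, 10 µM 6-shogaol against LPS and the compounds at 10 µM, with 2 of the 9 genes in each of the last 2, and 2092 in place of 3229 for 30 µM 6-shogaol against untreated. With fragment length as a covariate, 48 genes were called for 10 µM 6-shogaol against LPS, and 5 of the 9 in place of 3 for 30 µM 6-shogaol against untreated. DESeq2 called 2 genes for 30 µM 6-gingerol, and 173 for the compounds at 10 µM, 3 of the 9 among them. Limma-trend on the deposited signal called 34 and 42 genes for 10 µM 6-shogaol against LPS and against 6-gingerol, and 2 of the 9 in place of 4 for 30 µM 6-shogaol against LPS and against 6-gingerol. The cause of these shifts was not tested.

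Leaving out 1 library, which also leaves fewer residual degrees of freedom and assumes that the lone library varies like the others, gave 768 (without LPS replicate 2) to 1602 genes for LPS, 0 to 1 for 30 µM 6-gingerol, 18 to 44 for 10 µM 6-shogaol and 1827 to 2171 for 30 µM 6-shogaol against LPS, 16 to 49 and 1807 to 2157 for the compounds at 10 and 30 µM, 960 to 1685 between the 6-shogaol doses and 1980 to 3176 against untreated. The called number among the 9 genes ran from 2 to 4 with LPS, 0 to 1 with 10 µM 6-shogaol, 2 to 3 with 30 µM 6-shogaol, 0 to 1 and 2 to 4 for the compounds at 10 and 30 µM, and 2 to 4 between the 6-shogaol doses.

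Scaling by library totals moved the split of higher to lower calls from 973 and 528 to 785 and 688 with LPS, from 1592 and 1579 to 1265 and 1653 for the compounds at 30 µM, from 1251 and 1212 to 870 and 1434 between the 6-shogaol doses, from 1696 and 1533 to 1322 and 1758 against untreated, and from 10 and 71 to 21 and 48 for the compounds at 10 µM.

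Replicates share a number across groups, but same-numbered libraries showed no strong shared deviation (correlations from -0.31 to 0.18). Whether the numbers mark a pairing stays undecided, because a weak shared effect could go unseen and no label explains them. The fit with the replicate block called 1541 genes with LPS, 3262 with 30 µM 6-shogaol and 80 with 10 µM 6-shogaol against LPS, and 0 with either dose of 6-gingerol. It added Bax to the 9 genes' calls for 30 µM 6-shogaol against untreated and changed no other of their calls.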

Other observations

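Trp53cor1 (lincRNA-p21), a long noncoding RNA transcribed beside Cdkn1a and known as a p53 target, was looked at after its position had been seen in the annotation. It was at 5.18 and 7.86 CPM in untreated cells, 8.23 and 8.90 CPM with LPS, 9.01 and 10.0 CPM with 10 µM 6-gingerol and 8.90 and 10.1 CPM with 30 µM 6-gingerol. With 6-shogaol it was at 7.27 and 9.43 CPM at 10 µM and at 4.03 and 4.51 CPM at 30 µM, where both libraries lay below every other library of the 12. Its log2 fold change at 30 µM was -1.005 against LPS (SE 0.21, adjusted p = 0.00250, edgeR) and -0.61 against untreated cells (adjusted p = 0.0449, edgeR). With LPS it changed by 0.39 without being called (adjusted p = 0.235).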
